A study of Homo sapiens with 12 samples.

Results

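The 32 genes described here encode the heat shock proteins and cytosolic chaperones of a fixed list of symbols, and all 32 were among the 23273 genes with a measured value. They comprise the transcription factor HSF1, 6 proteins of the HSP70 class, 3 partners of HSP70, 2 small heat shock proteins, 2 HSP90 proteins, 6 partners of HSP90, 4 mitochondrial chaperones, and the 8 subunits of the cytosolic chaperonin. RNA was sequenced in 12 libraries of 2 melanoma cell lines, COLO858 and MMACSF, both BRAF-mutant. Cells of each line received the vehicle DMSO or 0.2 μM vemurafenib, a RAF inhibitor, for 24 or 48 h, with 2 replicates per group. Each line has 1 DMSO group, and the labels do not say at which of these times it was harvested. The comparisons ask how each line responds to RAF inhibition over time and where the responses of the 2 lines part. The lines were grown in different media and seeded at different densities, so line, medium, and density cannot be told apart.

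Chaperones bind unfolded or partly folded proteins, and many chaperones use ATP to help these proteins reach their folded state. In the cytosol, HSP70 proteins take up clients delivered by HSP40 (DNAJ) partners and can pass them to HSP90, which stabilises many kinases and receptors, while the ring-shaped chaperonin (TRiC or CCT) folds actin, tubulin, and other clients inside its cavity. HSF1 activates many of these genes in stress by binding heat shock elements, which are repeats of the unit GAA in alternating orientation. RAF kinases, the targets of vemurafenib, are well-known clients of HSP90 and its kinase co-chaperone.

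Promoters of 29 of the 32 genes were matched by symbol in RefSeq (GRCh38.p14). In the 250 bases before each start site, 2 forms of the heat shock element were searched. The three-unit form was GAANNTTCNNGAA or TTCNNGAANNTTC, each the reverse complement of the other. The shorter form was GAANNTTC or TTCNNGAA, each its own reverse complement, and every three-unit match contains it. The three-unit form was found in 5 of the 29 genes (HSPA8, HSP90AA1, HSP90AB1, HSPD1, and CHORDC1), which is 17.2%, against 0.557% of all 27305 genes with a promoter in the table. The shorter form was found in 13 of 29 (44.8%) against 13.96% of all genes. A gene with several start sites was counted once if any of its windows held the match. The stretches printed here run from 5′ to 3′ on the strand of the gene, with the units of each match in capitals. They show 4 genes with a three-unit element (HSPA8 at chr11:123062137-123062256, minus strand; HSP90AA1 at chr14:102087045-102087164, minus strand; HSP90AB1 at chr6:44247753-44247852, plus strand; CHORDC1 at chr11:90223050-90223169, minus strand). Next to them are 3 genes with the shorter form, picked because their levels turn upwards in one line or in both (DNAJB1 at chr19:14518398-14518517, minus strand; DNAJA1 at chr9:33025053-33025172, plus strand; HSPB1 at chr7:76302453-76302572, plus strand). The last is a chaperonin subunit with neither form (CCT7 at chr2:73234188-73234307, plus strand). The chaperonin subunits CCT2 and TCP1 and the gene HSPB8 also hold the shorter form but are not printed. Their log2 differences from DMSO at 48 h were -0.52 (CCT2) and -0.56 (TCP1) in COLO858. In MMACSF they were -0.995, -0.76, and -0.52 (HSPB8). The printed genes thus do not stand for all members with or without an element.
HSPA8: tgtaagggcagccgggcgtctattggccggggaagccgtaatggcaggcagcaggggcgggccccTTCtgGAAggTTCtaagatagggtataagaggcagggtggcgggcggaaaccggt
HSP90AA1: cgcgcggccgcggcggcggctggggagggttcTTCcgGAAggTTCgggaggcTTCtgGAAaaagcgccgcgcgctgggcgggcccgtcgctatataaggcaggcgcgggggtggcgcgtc
HSP90AB1: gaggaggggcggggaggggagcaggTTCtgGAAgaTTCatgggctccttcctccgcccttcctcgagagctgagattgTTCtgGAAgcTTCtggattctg
CHORDC1: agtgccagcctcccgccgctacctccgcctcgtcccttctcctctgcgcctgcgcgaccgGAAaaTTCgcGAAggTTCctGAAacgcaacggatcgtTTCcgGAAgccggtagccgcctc
DNAJB1: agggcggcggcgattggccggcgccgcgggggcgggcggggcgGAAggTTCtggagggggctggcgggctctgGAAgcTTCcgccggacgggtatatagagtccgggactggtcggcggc
DNAJA1: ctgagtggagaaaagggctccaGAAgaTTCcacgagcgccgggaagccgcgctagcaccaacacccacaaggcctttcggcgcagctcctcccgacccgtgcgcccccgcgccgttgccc
HSPB1: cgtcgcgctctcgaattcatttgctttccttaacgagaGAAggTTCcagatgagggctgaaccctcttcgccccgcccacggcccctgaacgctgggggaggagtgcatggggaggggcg
CCT7: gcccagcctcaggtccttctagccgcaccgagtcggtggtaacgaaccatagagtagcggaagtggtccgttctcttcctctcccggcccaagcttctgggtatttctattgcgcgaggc

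Values are FPKM, the fragments of a gene divided by its length and by the mapped fragments of the library, as the authors deposited them, so levels of different genes can be ordered within a library. The tables of the 2 lines are separate and whether they were scaled together is not stated, so levels were not tested between lines. Genes at 1 FPKM or above numbered 11745 to 11934 per library in COLO858 and 11679 to 11972 in MMACSF. The read depth of the libraries is unknown, and the microRNA gene MIR4461 took 14.1% to 43.4% of the FPKM sum of a library in COLO858 and 14.7% to 33.0% in MMACSF. Of 8 melanocyte lineage markers, 6 to 8 reached 1 FPKM in both libraries of every group, while of 8 markers of other cell types 1 or 2 did, and CD3E and KRT5 were at 0 in every library. The summed level of the lineage markers went from 702 to 717 FPKM under DMSO to 4144 to 4149 at 48 h in COLO858, and from 11160 to 11373 to 16831 to 17555 in MMACSF. The sums do not stand for each marker. Most of the rise in COLO858 was DCT, with means of 267 and then 2150 FPKM, while MITF was at 67.7 and 67.3. TYR and MLANA had means under 1 FPKM there in both of these groups. At 48 h, 5 of the 7 lineage markers tested in COLO858 were above DMSO and 2 below, and in MMACSF 7 and 1 of 8. The summed level of the markers of other cells went from 6.07 to 9.16 FPKM under DMSO to 15.3 to 18.8 at 24 h and 17.6 to 27.3 at 48 h in COLO858, and from 52.7 to 73.8 to 38.8 to 48.4 and 18.5 to 26.9 in MMACSF. Most of this was LUM, a matrix proteoglycan of fibroblasts, at 5.30 and 8.27 FPKM and then 15.3 and 25.6 at 48 h in COLO858 and 52.2 and 73.3 and then 17.9 and 26.4 in MMACSF. The drug's pathway was lower at both times, with 8 of 10 MAPK output genes past the threshold in each comparison with DMSO. DUSP6, a phosphatase that MAPK signalling induces, was at 109.7 and 124 FPKM under DMSO and 60.0 and 61.0 FPKM at 48 h in COLO858, and at 40.4 and 40.9 and then 10.8 and 11.1 FPKM in MMACSF.

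Most chaperone genes were expressed at high levels and were lower in vemurafenib-treated cells of both lines. The test was limma on log2(FPKM + 1) with an adjusted p threshold of 0.01, and 28 members reached the minimum group mean of 1 FPKM in COLO858 and 30 in MMACSF. A second fit added the replicate number as a term, called the block, which takes out shifts that same-numbered libraries share. The block is given beside each count because it moved the counts by over 1.5 times. At 24 h in COLO858, 4 members fell and 0 rose, against 5.71% and 4.11% of the 12696 genes tested. With the block 23 fell and 1 rose, against 21.8% and 23.2%. At 48 h in COLO858, 2 fell and 0 rose, against 4.73% and 4.74%, and with the block 21 fell and 3 rose, against 23.3% and 20.4%. In MMACSF, 7 fell and 0 rose at 24 h, against 3.6% and 2.22% of 12599 genes, and with the block 25 fell and 1 rose, against 13.0% and 13.1%. At 48 h in MMACSF, 7 fell and 0 rose, against 5.41% and 3.42%, and with the block 24 fell and 1 rose, against 15.3% and 14.8%. Without adjustment, limma put 1 member (DNAJA1 in COLO858 at 48 h) above DMSO at p under 0.05, and 0 in the other 3 comparisons. Far more members lay below DMSO by the same cut. COLO858 had 20 of them after 24 h but 15 after 48 h, while for MMACSF the numbers were 27 and then 25. The share of all genes past this unadjusted cut is not given here. These counts, like later ones of this kind, were therefore not weighed against all genes.

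The same picture held for the libraries themselves. In COLO858, 22 of 28 members were lower in both libraries at 24 h than in both DMSO libraries, against 29.0% of all genes tested, and 0 were higher, against 34.1%. At 48 h 19 were lower and 3 higher, against 31.4% and 29.9%. In MMACSF 27 of 30 were lower at 24 h, against 25.8%, and 0 higher, against 34.0%. At 48 h 27 were lower and 1 higher, against 28.8% and 35.7%. In COLO858 the median log2 difference of the members was -0.67 at the first time and -0.52 at the second, beside medians of 0.06 and -0.01 over all genes tested. In MMACSF it was at -0.70 and -0.72, beside 0.07 and 0.06. Both times are set against the same pair of DMSO libraries and are thus not independent of each other. In bulk RNA, fewer cells of a kind and less RNA per cell cannot be told apart. Cell cycle genes moved too, with 14 of 14 past the threshold at 24 h in both lines. Their median log2 difference in COLO858 was -2.79 at 24 h and -0.60 at 48 h, and that in MMACSF was -2.15 and -2.96. Their part in the chaperone values was not tested.

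**Figure D1:**
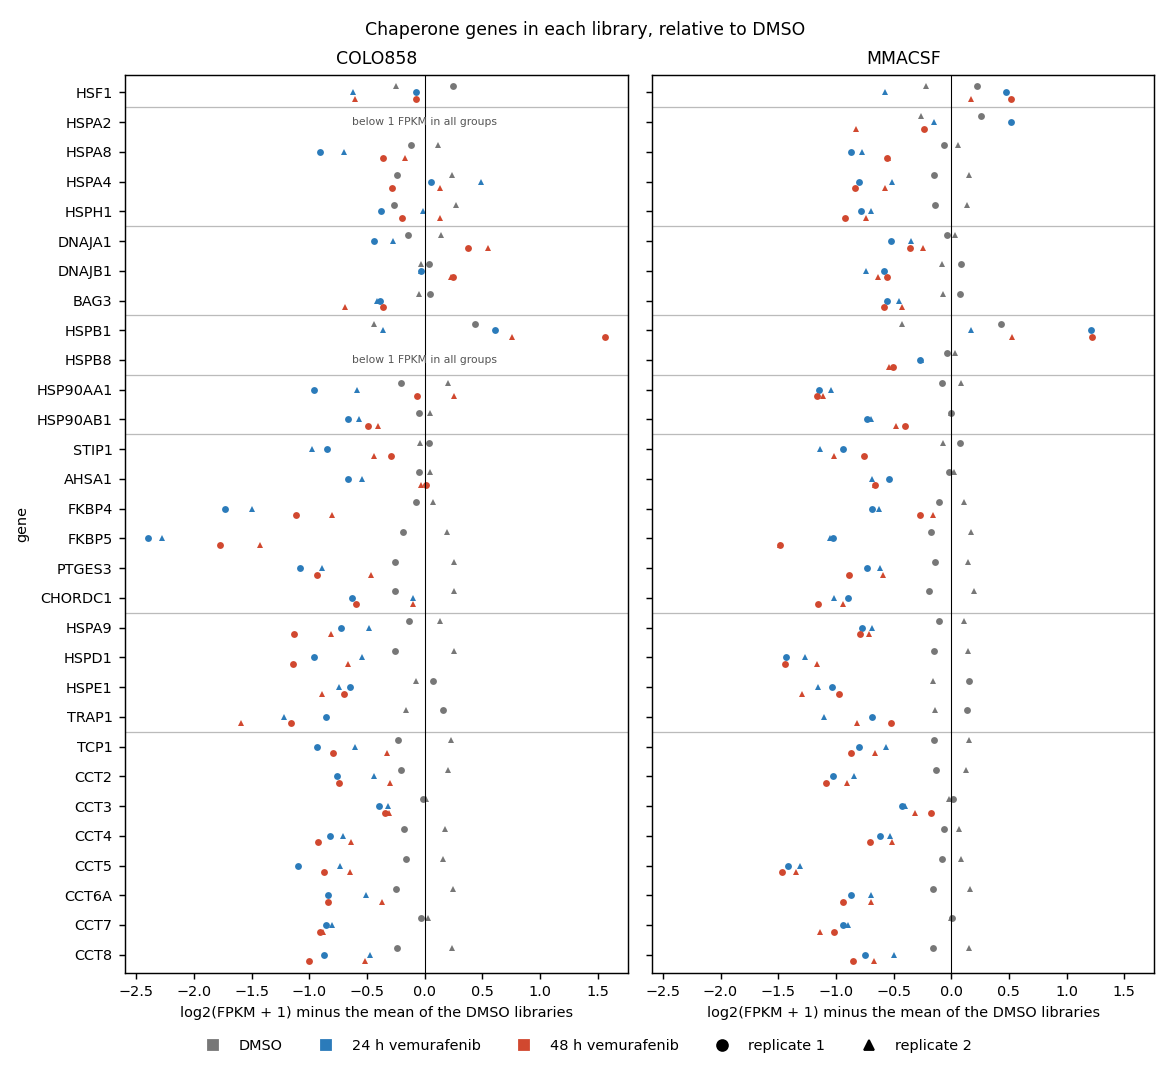
Each symbol is 1 library, with the log2(FPKM + 1) of a gene minus the mean of the DMSO libraries of its line on the x axis and the gene on the y axis. Circles are replicate 1 and triangles replicate 2, and grey lines part the classes of chaperone. At 24 h 22 of 28 members in COLO858 and 27 of 30 in MMACSF have both libraries to the left of both DMSO libraries, and at 48 h 19 and 27.

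HSF1, the master activator of the heat shock response, lay in groups that overlapped in both lines. In COLO858 its level was 55.3 and 39.1 FPKM under DMSO, 44.2 and 29.8 at 24 h, and 43.98 and 30.3 at 48 h. Replicate 1 was above replicate 2 in every group, and in each replicate the DMSO library was the highest. The log2 difference was -0.35 (SE 0.30) at 24 h, not past the threshold (limma, adjusted p = 0.432), but with the block HSF1 fell (adjusted p = 0.00345). For MMACSF the values were 59.1 and 43.3 FPKM under DMSO, 70.7 and 33.6 at 24 h, and 72.9 and 57.2 at 48 h. At 48 h its log2 difference was 0.35 (SE 0.37), with an adjusted p of 0.536 in limma and 0.199 with the block.

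Among the HSP70 proteins, HSPA8 (HSC70), the constitutive cytosolic form, had the highest mean level of all 32 genes under DMSO in both lines. In COLO858 its level was 976 and 1144 FPKM under DMSO, 562 and 649.9 at 24 h, and 823 and 938 at 48 h, so both libraries of 24 h lay below all others and those of 48 h lay below both DMSO libraries. The MMACSF libraries held 899 and 980.1 FPKM, then 512 and 549 at 24 h and 636 and 643 at 48 h. HSPA8 fell at 24 h in MMACSF, with a log2 difference of -0.82 (SE 0.11, limma, adjusted p = 0.00836). At 24 h in COLO858 the log2 difference was -0.80 (SE 0.15), past the threshold with the block (adjusted p = 0.000266) but not without it (0.016). By 48 h it was -0.27 in COLO858 and -0.55 in MMACSF.

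HSPA4 and HSPH1 belong to the HSP110 branch, which exchanges nucleotide on HSP70. They differed between lines in where their libraries lay. HSPA4 in COLO858 was at 50.1 and 70.5 FPKM under DMSO, 62.0 and 83.7 at 24 h, and 48.6 and 65.4 at 48 h, with overlapping groups. It is the 1 member that rose at 24 h in COLO858 with the block (log2 difference 0.27, SE 0.04 with the block, adjusted p = 0.00635). In MMACSF its libraries of both times lay below DMSO, at 82.0 and 101.28 FPKM, then 51.8 and 63.3 and 50.8 and 60.7. HSPH1 was at 33.9 and 49.7 FPKM under DMSO and 35.7 and 45.1 at 48 h in COLO858, and at 68.8 and 83.4 and 39.5 and 44.9 in MMACSF, where it fell with the block (log2 difference -0.83, adjusted p = 0.0018) but not without it (0.0139).

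HSPA2, an HSP70 protein best known from the testis, was a gene of one line. In COLO858 it stayed between 0.06 and 0.21 FPKM in all 6 libraries and was not tested. In MMACSF it was at 26.7 and 18.3 FPKM under DMSO, 32.1 and 19.9 at 24 h, and 18.6 and 12.1 at 48 h. HSPA1A and HSPA1B, the strongly heat-inducible HSP70 genes, were listed at 0 in all 12 libraries. They lie next to each other at chr6:31783320-31785723 and chr6:31795515-31798031 (GRCh37, plus strand). They share nearly all of their sequence. Within 2 Mb of the pair (chr6:29783320-33798031), 121 of 144 protein-coding genes (84.0%) were at 0 in all 12 libraries, against 97 of 720 (13.5%) on the rest of the chromosome. The ribosomal protein gene RPS18 and the chaperone genes BAG6, PFDN6, and HSPA1L are among those at 0. A 0 for HSPA1A and HSPA1B is therefore a listed value and was not read as absent RNA.

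DNAJA1 and DNAJB1, HSP40 proteins that deliver clients to HSP70, lay below DMSO in the drug libraries of MMACSF, while in COLO858 their highest levels came at 48 h. DNAJA1 in COLO858 was at 173 and 210.0 FPKM under DMSO, 140.4 and 158 at 24 h, and 248 and 279 at 48 h. All 3 groups were apart, with the 24 h libraries lowest and the 48 h libraries highest. The rise over DMSO at 48 h was past the threshold with the block only (log2 difference 0.46, SE 0.15, limma, adjusted p = 0.0822, and 0.00203 with the block). In MMACSF DNAJA1 was at 141 and 149 FPKM under DMSO, 100.60 and 114 at 24 h, and 113 and 122 at 48 h, so all 4 drug libraries lay below both DMSO libraries. DNAJB1 in COLO858 was at 68.2 and 65.0 FPKM under DMSO, 65.1 and 65.3 at 24 h, and 79.2 and 78.3 at 48 h. Its libraries at 24 h overlapped with DMSO, and those at 48 h lay above all others (log2 difference 0.24, SE 0.11, limma, adjusted p = 0.186, and 0.00957 with the block). In MMACSF DNAJB1 was at 107 and 95.2 FPKM under DMSO, 67.0 and 60.0 at 24 h, and 68.4 and 64.5 at 48 h. It fell there with the block at 48 h (log2 difference -0.60, adjusted p = 0.00193), while without it the adjusted p was 0.0225.

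BAG3, which couples HSP70 to small heat shock proteins and to autophagy, lay below DMSO in both lines. Its level was 36.1 and 33.6 FPKM under DMSO, 26.3 and 25.9 at 24 h, and 26.9 and 21.3 at 48 h in COLO858. In MMACSF the values were 25.8 and 23.2, 16.3 and 17.6, and 16.0 and 18.0 FPKM. No drug library reached a DMSO library of its line, and the only call was a fall at 48 h in COLO858 with the block (log2 difference -0.52, adjusted p = 0.00823, and 0.0653 in limma without it).

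HSPB1 (HSP27), a small heat shock protein that holds unfolded proteins, was the member with the largest positive differences from DMSO at 48 h and had replicates that lay far apart. In COLO858 it was at 533 and 291 FPKM under DMSO, 602 and 306 at 24 h, and 1164 and 664 at 48 h. In MMACSF the values were 783 and 431, then 1348 and 653, and then 1354 and 838 FPKM. Replicate 1 exceeded replicate 2 in all 6 groups, and at 48 h both libraries lay above both DMSO libraries in each line. The log2 difference at 48 h was 1.16 (SE 0.48) in COLO858 and 0.87 (SE 0.47) in MMACSF, neither past the threshold (limma, adjusted p = 0.141 and 0.229). With the block HSPB1 rose at 48 h in both lines (adjusted p = 0.00033 and 0.00375), as it did at 24 h in MMACSF (0.00746) but not at 24 h in COLO858 (0.0975). HSPB8, a partner of BAG3, was another gene of one line. It stayed between 0.24 and 0.47 FPKM in COLO858. MMACSF libraries were at 80.6 and 84.4 FPKM under DMSO, 68.1 and 68.5 at 24 h, and 57.7 and 56.5 at 48 h. The fall at 48 h was past the threshold with the block only (log2 difference -0.52, adjusted p = 0.00267, and 0.0188 in limma without it).

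The HSP90 paralogs took different courses in COLO858 at 48 h. HSP90AA1 encodes the stress-inducible alpha form and HSP90AB1 the constitutive beta form, and their transcripts are alike in sequence, so reads could be split between them. In COLO858 HSP90AA1 was at 435 and 575 FPKM under DMSO, 257 and 332 at 24 h, and 478 and 597 at 48 h. The 24 h libraries lay below all others, and the 48 h libraries overlapped with DMSO. Its MMACSF level was 494 and 554 FPKM under DMSO, 236 and 253 at 24 h, and 233 and 242 at 48 h. It fell at both times there, with log2 differences of -1.09 (SE 0.11, limma, adjusted p = 0.00462) and -1.14 (SE 0.11, adjusted p = 0.00316). The difference in COLO858 was -0.77 (SE 0.22, adjusted p = 0.0542, and 0.000374 with the block) at 24 h and 0.09 at 48 h (SE 0.22).

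HSP90AB1 lay below DMSO in all drug libraries of both lines. In COLO858 it was at 661 and 709 FPKM under DMSO, 432 and 462 at 24 h, and 488 and 517 at 48 h. In MMACSF the values were 712 and 711, 429.8 and 438, and 539.7 and 511 FPKM, and the fall at 24 h was past the threshold (log2 difference -0.71, SE 0.10, limma, adjusted p = 0.00973). Within a library, the ratio of HSP90AA1 to HSP90AB1 needs no scaling between libraries. In COLO858 this ratio was 0.658 and 0.812 under DMSO, 0.595 and 0.719 at 24 h, and 0.980 and 1.15 at 48 h. In MMACSF it was at 0.694 and 0.779 under DMSO, 0.549 and 0.578 at 24 h, and 0.432 and 0.474 at 48 h. The alpha form thus gained on the beta form by 48 h in COLO858 and lost in MMACSF, with both 48 h libraries outside the range of the other 4 in each line.

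Among the partners of HSP90, FKBP5 had the largest fall of all members at both times in COLO858 and at 48 h in MMACSF. FKBP5 and FKBP4 encode immunophilins that sit on HSP90 in steroid receptor complexes. FKBP5 in COLO858 was at 7.77 and 10.4 FPKM under DMSO, 0.903 and 1.07 at 24 h, and 1.93 and 2.73 at 48 h. It fell at both times, with log2 differences of -2.34 (SE 0.21, limma, adjusted p = 0.00236) and -1.60 (SE 0.21, adjusted p = 0.00663) on the log2(FPKM + 1) scale, which understates the change of a gene near 1 FPKM. In MMACSF FKBP5 was at 7.91 and 10.3 FPKM under DMSO, 3.93 and 3.85 at 24 h, and 2.58 and 2.59 at 48 h, and it fell at 48 h (log2 difference -1.49, SE 0.17, limma, adjusted p = 0.00451). Its lowest level thus came at 24 h in COLO858 and at 48 h in MMACSF. FKBP4 in COLO858 was at 66.9 and 74.2 FPKM, then 20.6 and 24.3, and then 31.9 and 39.9, and it fell at 24 h (log2 difference -1.61, SE 0.17, limma, adjusted p = 0.00367). In MMACSF its levels were 34.8 and 40.7 FPKM under DMSO, 22.9 and 24.0 at 24 h, and 30.9 and 33.6 at 48 h, where the log2 difference was -0.22 (SE 0.13, adjusted p = 0.275, and 0.0442 with the block).

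STIP1 (HOP), which bridges HSP70 and HSP90, fell at 24 h in both lines. In COLO858 it was at 253 and 240.3 FPKM under DMSO, 137 and 124 at 24 h, and 202 and 181 at 48 h, with a log2 difference at 24 h of -0.91 (SE 0.12, limma, adjusted p = 0.00693). In MMACSF the values were 218 and 197, 108 and 93.9, and 122 and 102 FPKM, with a log2 difference at 24 h of -1.04 (SE 0.14, limma, adjusted p = 0.00964). AHSA1, which stimulates the ATPase of HSP90, was at 93.6 and 100.5 FPKM under DMSO, 61.0 and 66.2 at 24 h, and 97.7 and 94.7 at 48 h in COLO858, where the 48 h libraries overlapped with DMSO. The MMACSF libraries held 74.7 and 77.0 FPKM, then 51.8 and 46.6, and then 47.7 and 47.5, with no such overlap. PTGES3 (p23), which stabilises the closed form of HSP90, was below DMSO in all 4 drug libraries of each line, at 154 and 219.8 FPKM under DMSO and 96.0 and 133 at 48 h in COLO858 and at 318 and 387 and 189.6 and 233 in MMACSF. CHORDC1, a further HSP90 co-chaperone, was among the lowest members at 6.64 and 9.84 FPKM under DMSO and 5.03 and 7.50 at 48 h in COLO858, with overlapping groups. Levels in MMACSF were 13.5 and 18.0 FPKM and 6.48 and 7.65 FPKM. Of the 6 partners, COLO858 had 3 that fell at 24 h, against 5.71% of all genes, and MMACSF 1, against 3.6%. By 48 h 1 fell in each line, against 4.73% in COLO858 and 5.41% in MMACSF. With the block 6 fell at 24 h in each line, against 21.8% of all genes in COLO858 and 13.0% in MMACSF, and 5 at 48 h, against 23.3% and 15.3%.

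**Figure D2:**
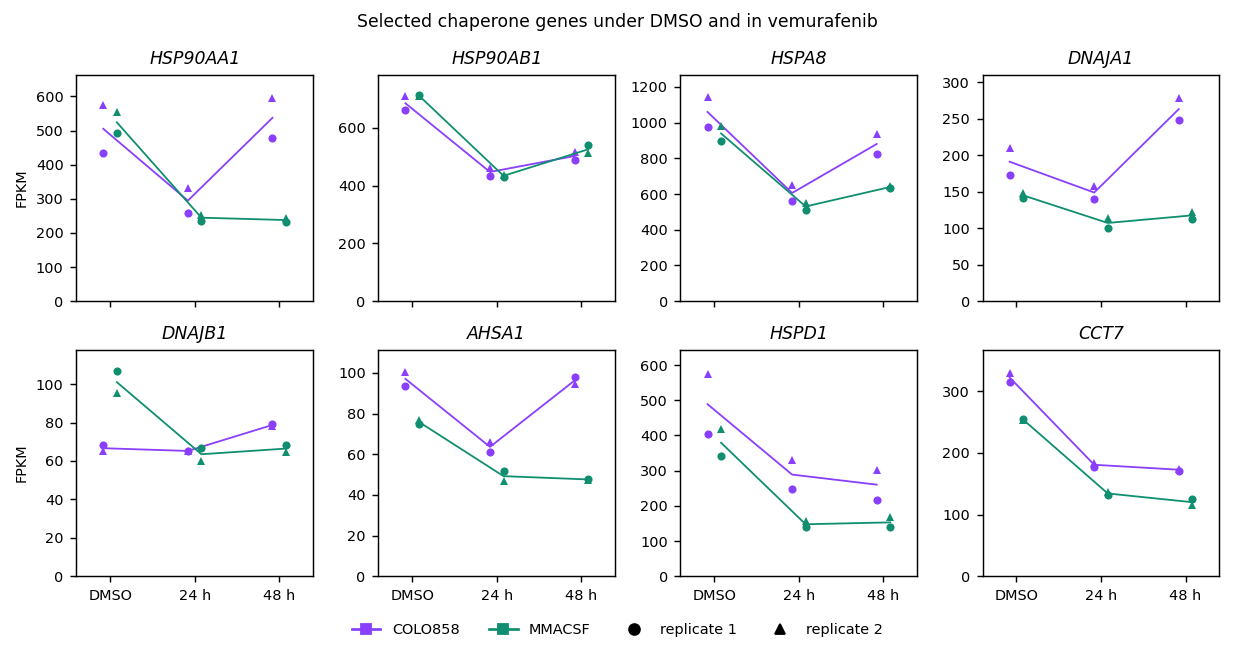
The y axes give FPKM from 0 for 8 members, and the x axes the groups. Each symbol is 1 library and the lines join the means of the 2 libraries. HSP90AA1, HSPA8, DNAJA1, and AHSA1 are higher at 48 h than at 24 h in both libraries of COLO858, while HSPD1 and CCT7 stay below DMSO at both times in both lines.

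All 4 mitochondrial chaperones were lower than DMSO in both libraries at both times in both lines. Of all genes tested, 29.0% and 31.4% were so at 24 and 48 h in COLO858, and 25.8% and 28.8% in MMACSF. Without the block 0 of the 4 fell at either time in COLO858, against 5.71% and 4.73%. In MMACSF 1 fell at 24 h and 2 at 48 h, against 3.6% and 5.41%. With the block 4 fell at both times in each line, against 21.8% and 23.3% in COLO858 and 13.0% and 15.3% in MMACSF. HSPD1 (HSP60) and HSPE1 (HSP10) form the folding chamber of the mitochondrial matrix. They overlap on chromosome 2, at chr2:198351308-198381461 on the minus strand and chr2:198364864-198368173 on the plus strand (GRCh37). The annotated span of HSPE1 thus lies within that of HSPD1. HSPD1 was at 403 and 574 FPKM under DMSO, 247 and 331 at 24 h, and 217 and 303 at 48 h in COLO858. In MMACSF it was at 340.5 and 418, 139.5 and 156, and 139 and 167 FPKM and fell at both times, with log2 differences of -1.35 (SE 0.16, limma, adjusted p = 0.00653) and -1.30 (SE 0.16, adjusted p = 0.0057). HSPE1 was at 401 and 362 FPKM under DMSO and 235 and 205 at 48 h in COLO858, and at 287 and 231 and 131 and 105 in MMACSF, where it fell at 48 h (log2 difference -1.13, SE 0.17, limma, adjusted p = 0.0093).

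All 4 mitochondrial chaperones had lower means at 48 h than at 24 h in COLO858. The other 2 are HSPA9 (mortalin), the HSP70 of the matrix, and TRAP1, the HSP90 of the matrix. HSPA9 was at 183 and 221 FPKM under DMSO, 122 and 144 at 24 h, and 91.2 and 114 at 48 h. TRAP1 was at 205 and 163, 100.87 and 78.1, and 81.6 and 60.2 FPKM. The 48 h libraries of HSPA9 lay below both of its 24 h libraries, while those of TRAP1 overlapped. From 24 to 48 h both fell with the block (log2 differences -0.37 and -0.34, adjusted p = 0.00529 and 0.00851) but not without it (limma, 0.338 and 0.486). In MMACSF HSPA9 was at 139 and 162 FPKM under DMSO, 87.5 and 92.9 at 24 h, and 86.4 and 91.3 at 48 h. TRAP1 there was at 54.3 and 44.5, 30.2 and 22.3, and 33.9 and 27.5 FPKM.

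The 8 subunits of the cytosolic chaperonin were lower than DMSO in both libraries of every comparison. Of all genes tested, 29.0% and 31.4% were so at 24 and 48 h in COLO858, and 25.8% and 28.8% in MMACSF. Past the threshold in COLO858 was 1 subunit at each time, against 5.71% and 4.73% of all genes. In MMACSF 2 and 3 subunits were, against 3.6% and 5.41%. With the block, 8 of 8 fell at both times in COLO858, against 21.8% and 23.3%, and 8 at 24 h and 7 at 48 h in MMACSF, against 13.0% and 15.3%. CCT7 was past the threshold in all 4 comparisons without the block. In COLO858 it was at 315 and 329 FPKM under DMSO, 177 and 184 at 24 h, and 171 and 174 at 48 h, with log2 differences of -0.83 (SE 0.11, limma, adjusted p = 0.00587) and -0.90 (SE 0.11, adjusted p = 0.00517). In MMACSF the values were 254 and 253, 132 and 136, and 125 and 115 FPKM, with log2 differences of -0.91 (SE 0.10, limma, adjusted p = 0.00584) and -1.08 (SE 0.10, adjusted p = 0.00294). CCT5 had the largest fall of the 8 in MMACSF, from 209.5 and 235 FPKM under DMSO to 82.4 and 89.0 at 24 h and 79.6 and 86.8 at 48 h (log2 differences -1.36 and -1.41, limma, adjusted p = 0.00289 and 0.00204). In COLO858 CCT5 was at 128 and 161 FPKM, then 66.6 and 85.8, and then 77.9 and 91.4. CCT3 had the smallest difference of the 8 in each comparison, at 267 and 271 FPKM under DMSO and 212 and 217 at 48 h in COLO858, and 229 and 224 and 200.4 and 182 in MMACSF. It is the 1 subunit that did not fall at 48 h in MMACSF with the block (log2 difference -0.25, adjusted p = 0.0263).

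The other subunits were also measured in every library. TCP1 was the lowest of the 8 in all 12 libraries, at 71.7 and 98.6 FPKM under DMSO and 48.2 and 67.0 at 48 h in COLO858, and 78.0 and 96.8 and 47.1 and 54.7 in MMACSF. CCT4 was at 123 and 157 and then 72.9 and 89.1 FPKM in COLO858, and at 142 and 155 and then 90.7 and 104 in MMACSF. CCT6A was at 186 and 263 and then 123 and 171 FPKM in COLO858, and at 139 and 174 and then 80.3 and 95.4 in MMACSF. The RNA of the lowest and highest subunit in a library differed 3.24-fold to 4.70-fold in COLO858 and 6.35-fold to 7.80-fold in MMACSF. In MMACSF the highest was CCT2 in every library. The complex holds its protein subunits in equal numbers, and protein was not measured in these libraries. CCT8 was at 156 and 218 and then 91.3 and 129 FPKM in COLO858, and at 145 and 180.05 and then 89.2 and 101.24 in MMACSF.

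CCT2 stood out from its partners in MMACSF. It was at 123 and 163 FPKM under DMSO, 83.6 and 104 at 24 h, and 84.2 and 115 at 48 h in COLO858. Its MMACSF level was 608 and 729.8 FPKM, then 327 and 372, and then 314 and 355, and it fell at 48 h (log2 difference -0.995, SE 0.15, limma, adjusted p = 0.00892). Within a library, CCT2 was 0.749 to 0.921 times the median of the other 7 subunits in the 6 COLO858 libraries and 3.42 to 4.20 times in the 6 MMACSF libraries. The ranges are far apart and, being ratios within a library, do not depend on how the tables were scaled.

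**Figure D3:**
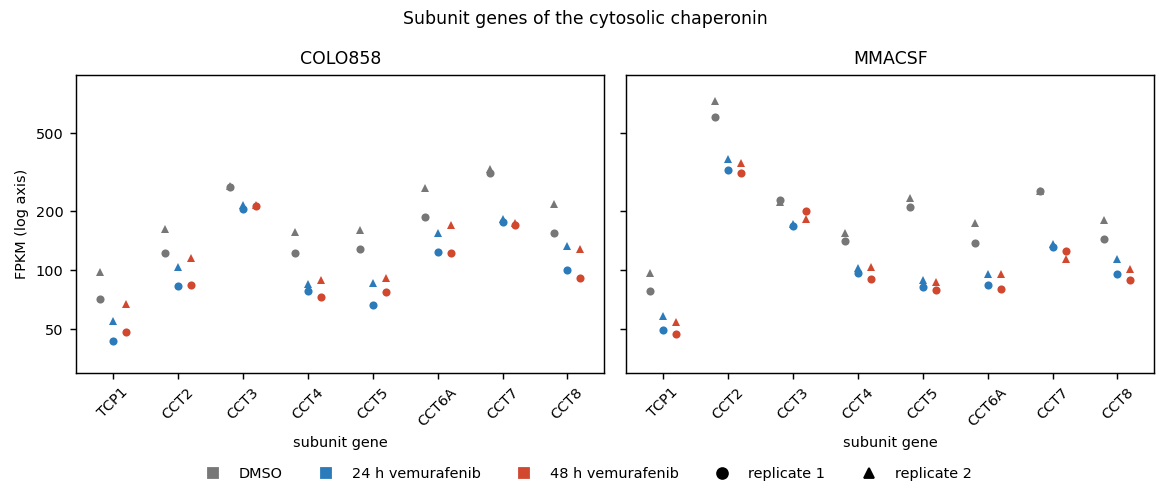
FPKM of the 8 subunit genes on a log axis, with 1 symbol per library, circles for replicate 1 and triangles for replicate 2. Drug libraries lie below the DMSO libraries for every subunit in both lines, and CCT2 is the highest subunit in all 6 MMACSF libraries, while TCP1 is the lowest in all 12.

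From 24 to 48 h, several members of the HSP70 and HSP90 systems were higher again in COLO858. This comparison uses no DMSO library, but it shares the 24 h libraries with the comparison of 24 h and DMSO. The fall and the later rise are thus not independent of each other. Both 48 h libraries lay above both 24 h libraries for 10 of 28 members, against 20.1% of all genes, and below them for 2, against 26.6%. No member was past the threshold in limma without the block, against 1.17% and 0.213% of all genes that rose and fell, while without adjustment 7 were higher and 0 lower at p under 0.05. The block gave 8 that rose (HSPA8, DNAJA1, HSPB1, HSP90AA1, STIP1, AHSA1, FKBP4, and FKBP5) and 3 that fell (HSPA4, HSPA9, and TRAP1), against 9.13% and 8.83% of all genes. Among the 8, HSPB1 had not fallen at 24 h (log2 difference from DMSO 0.12). DNAJA1 had a log2 difference of 0.82 (SE 0.15), with an adjusted p of 0.0447 in limma and 0.00144 with the block. For HSP90AA1 the difference was 0.87 (SE 0.22), with an adjusted p of 0.0947 in limma and 0.000905 with the block. None of the 8 chaperonin subunits rose or fell with the block, and their median log2 difference was 0.05. In the same interval the 14 cell cycle genes had a median log2 difference of 2.15, with 8 past the threshold and 14 with the block, and their part in the chaperone values was not tested.

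In MMACSF no member rose or fell from 24 to 48 h, with or without the block. Without adjustment limma put 2 members higher and 2 lower at p under 0.05. Both 48 h libraries lay above both 24 h libraries for 4 of 30 members and below for 4, against 14.5% and 17.6% of all genes. Of all genes tested 0.111% rose and 0.111% fell, and with the block 0.0794% and 0.175%, so few calls were made on any gene in this comparison. The median of the cell cycle genes was -0.59 in this interval.

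The response at 48 h was compared between lines as the difference from DMSO in COLO858 minus that in MMACSF. DNAJB1 was the 1 of 30 members past the threshold, against 4.19% of 13595 genes higher and 3.3% lower. Its difference was 0.83 on the log2 scale (SE 0.14, limma, adjusted p = 0.00518), from 0.24 in COLO858 and -0.60 in MMACSF. This call was lost in limma when the libraries were rescaled (adjusted p = 0.0157) and when any 1 library other than a 24 h library of MMACSF was left out (adjusted p = 0.011 to 0.0245). Over all settings tried its adjusted p ran from 0.000166 to 0.0245. With the block 13 members were higher in COLO858 and 2 lower, against 13.0% and 12.2% of all genes. Of the 28 members tested in both lines 11 were higher, since HSPA2 and HSPB8 are under 1 FPKM in every group of COLO858 and their values of 0.51 and 0.57 come almost wholly from MMACSF. HSP90AA1 had the largest of the 30 differences at 1.23 (SE 0.25, limma, adjusted p = 0.0137, and 4.35e-05 with the block). Beside it, HSP90AB1 had a difference of -0.01 (SE 0.12, adjusted p = 0.981).

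The 11 with the block were the HSP70 proteins HSPA8, HSPA4, and HSPH1, both HSP40 proteins, HSP90AA1, STIP1, AHSA1, HSPD1, CCT2, and CCT5. Differences of 0.80 for HSPH1, 0.76 for DNAJA1, and 0.65 for AHSA1 had adjusted p values of 0.124, 0.0252, and 0.0131 in limma and 0.0014, 0.000365, and 0.00221 with the block. FKBP4 and TRAP1 were the 2 members lower in COLO858, with differences of -0.74 and -0.70 (adjusted p = 0.043 and 0.208 in limma, and 0.00099 and 0.000728 with the block). At 24 h no member was past the threshold, against 1.78% of genes higher and 1.93% lower, and without adjustment 2 were higher and 2 lower at p under 0.05. The block gave 7 that were higher and 2 that were lower, against 8.98% and 8.64%, among them HSPA4 at 0.93 (adjusted p = 0.000182) and FKBP5 at -1.30 (adjusted p = 0.00258). The cell cycle genes differed in the same direction at 48 h, with 10 of 14 past the threshold and a median of 1.94. Of the 8 markers of other cell types 2 were tested (LUM and COL1A1), and both were past it in that direction too, at 2.91 and 1.09 (limma, adjusted p = 0.00351 and 0.00406). The part of either list in the chaperone differences was not tested.

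**Figure D4:**
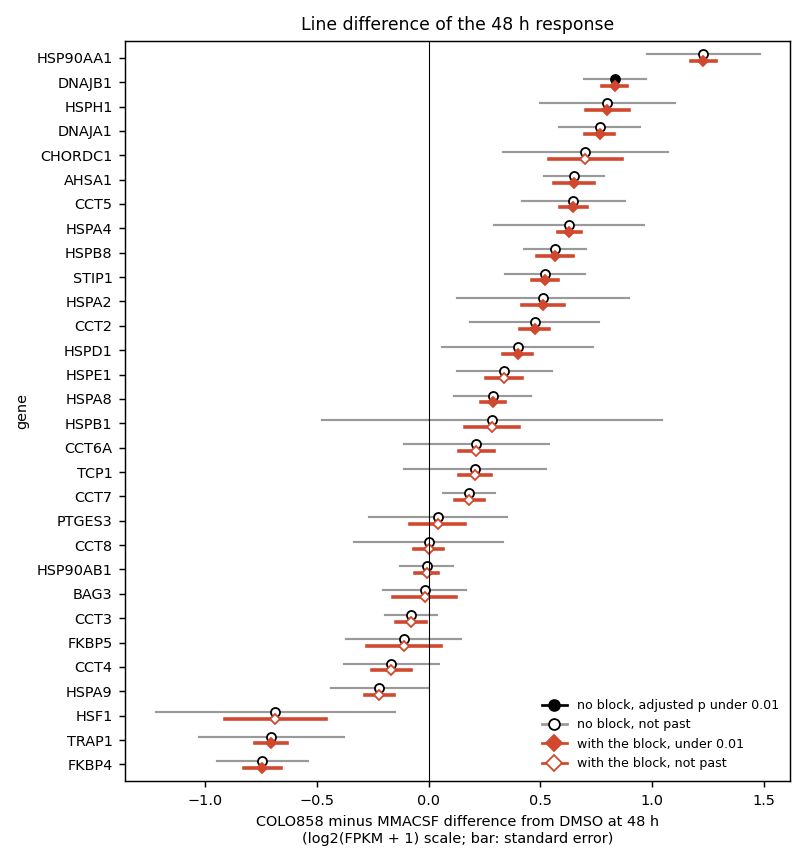
The x axis gives the log2 difference from DMSO at 48 h in COLO858 minus that in MMACSF for the 30 members tested, sorted by value, with bars of 1 standard error. Circles are from limma without the block and diamonds from the fit with it, filled where the adjusted p is under 0.01. DNAJB1 has the 1 filled circle, and HSP90AA1 lies farthest to the right at 1.23.

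The promoters printed earlier can be set beside these values. Among the 25 members tested in COLO858 whose promoter was matched, the 10 with the shorter or the three-unit heat shock element had a median log2 difference of -0.31 at 48 h, and 4 of them were above 0. Those 4 are HSPB1, DNAJA1, DNAJB1, and HSP90AA1. For the 15 with neither form the median was -0.76, and 0 were above 0. These 15 include HSPE1, while HSPD1, which overlaps it on the opposite strand, is among the 10. At 24 h the medians were -0.61 and -0.69. In MMACSF at 48 h the 11 members with an element had a median of -0.60 with 1 above 0, and the 16 without it had a median of -0.75 with 0 above 0, while at 24 h there the medians were -0.71 and -0.70. The three-unit form alone gave the other order in MMACSF, with a median over its 5 genes of -0.96 at 24 h and -1.05 at 48 h beside -0.67 and -0.72 over the 22 without it. In COLO858 its medians were -0.75 and -0.35, beside -0.64 and -0.54 over 20. HSP90AA1 and HSP90AB1 both carry a three-unit element, yet their 48 h values in COLO858 were 0.09 and -0.45. A match to these letters is a description of the window and not a measured binding site.

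Of 76 further chaperone genes in 8 lists, 65 were tested in COLO858 and 64 in MMACSF. At 48 h in COLO858 4 rose and 3 fell, against 4.74% and 4.73% of all genes, and with the block 9 rose and 23 fell, against 20.4% and 23.3%. In MMACSF 2 rose and 3 fell, against 3.42% and 5.41%, and with the block 7 rose and 15 fell, against 14.8% and 15.3%. CRYAB, a small heat shock protein of the lens and muscle, rose in both lines. In COLO858 it was at 0.366 and 0.164 FPKM under DMSO, 1.36 and 1.53 at 24 h, and 56.3 and 61.2 at 48 h (log2 difference 5.57, SE 0.15, limma, adjusted p = 0.000205). For MMACSF the values were 248 and 251 FPKM, then 489 and 512, and then 426 and 425 (log2 difference 0.77, SE 0.10, limma, adjusted p = 0.00617). The response differed between lines by 4.80 (SE 0.15). HSPA12A, a distant HSP70 relative, rose at 48 h by 1.32 in COLO858 and 1.37 in MMACSF.

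Among the HSP40 genes outside the members, DNAJB2 and DNAJB5 rose at 48 h in COLO858 (log2 differences 1.88 and 1.02, limma, adjusted p = 0.00303 and 0.00709), while DNAJA3, the mitochondrial HSP40, fell (-0.83, adjusted p = 0.0081). GRPEL1, the nucleotide exchange factor of HSPA9, and PFDN2, a subunit of the prefoldin that hands clients to the chaperonin, fell there too (-1.31 and -1.10, adjusted p = 0.0046 and 0.00643). In MMACSF at 48 h HSPA4L, DNAJC9, and CLPB fell (log2 differences -1.52, -1.15, and -0.97, limma, adjusted p = 0.00858, 0.0086, and 0.00962). DNAJC9, an HSP40 protein that also handles histones, was at 30.3 and 33.4 FPKM under DMSO, 17.3 and 19.2 at 24 h, and 33.9 and 35.5 at 48 h in COLO858, and at 25.8 and 27.0, 11.6 and 15.6, and 11.4 and 11.2 in MMACSF. Its response at 48 h differed between lines by 1.28 (SE 0.20, limma, adjusted p = 0.00372). Of the 14 HSP90 partners tested outside the members, 0 passed the threshold at 48 h in either line, while without adjustment 3 and 4 were lower and 0 higher at p under 0.05. In the fit with the block 6 fell in COLO858, against 23.3% of all genes, and 2 in MMACSF, against 15.3%.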

How the data were processed

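RNA-seq of 12 libraries (6 groups, 2 replicates each) was used. Per the labels and the study's methods, poly(A) libraries were made with a stranded kit and ERCC spike-in, and reads were mapped to hg19 with TopHat and quantified with Cuffdiff. The authors deposited 1 table of normalized values per line, taken here as FPKM. Versions, gene annotation, strand setting, and scaling between libraries are not given in the sources used here. Depth is unknown, so no counting interval is given, and every column was used (0 left out).

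Each line was fitted with limma 3.58.1 in R 4.3.3 on log2(FPKM + 1), with 3 groups, empirical Bayes moderation with a trend, and a minimum mean of 1 FPKM in 1 of the groups. Tests were two-sided, with Benjamini-Hochberg adjustment over all genes tested and a threshold of 0.01. Line differences were interactions in a fit of 6 groups over 12 libraries. The labels name 2 replicates seeded in 10-cm plates and do not say what else set them apart, so p-values cover only the spread between these libraries, which may be technical. The members and gene lists were chosen with earlier results of these data known. Every member is named, and of the 8 further lists every gene past the threshold at 48 h.

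Replicate numbers are shared between groups, and what they pair is not stated. In every group replicate 2 held the larger share of MIR4461, and the part of this in what the block changed was not tested. The deviations from the group mean that libraries of 1 number showed in different groups correlated at r = 0.196 to 0.211 between the groups of COLO858 and 0.0628 to 0.113 in MMACSF, and at 0.754 to 0.780 and 0.595 to 0.684 without 1623 small RNA genes. On every gene, 1 line thus had each pair over 0.1 and the other had not, and the block is shown for both. Coordinates of genes are from GENCODE on GRCh37 and promoters from RefSeq on GRCh38.p14. The scripts were tested on simulated data. Alternatives were other pseudocounts, filters, scalings, spreads, and thresholds, the block, and leaving out each library.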

Additional observations from a re-analysis of the deposited data

Results flagged for a closer look

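DNAJB1 was the 1 member whose response to 48 h of vemurafenib differed between the lines by the interaction test without the block, with a log2 difference of 0.83 (SE 0.14, limma, adjusted p = 0.00518). Both 48 h libraries were above both DMSO libraries in COLO858 and below them in MMACSF. The call was lost on rescaling (adjusted p = 0.0157) and in 10 of the 12 fits that left out 1 library. Rescaling called 2 other members (DNAJA1 and HSP90AA1) and the fit with the block 15, DNAJB1 among those 15 (adjusted p = 0.000166).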

How the results depend on the processing

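Of 4033 values of members under other settings, 3460 kept their direction and side of the threshold, 144 changed sign without a call in either fit, 158 lost a call, 271 gained one, and 0 reversed a call. The number of members past the threshold was 4, 2, and 0 in COLO858 (24 h, 48 h, and 24 to 48 h), 7, 7, and 0 in MMACSF, and 0 and 1 for the line differences at 24 and 48 h. With the replicate block these became 24, 24, and 11 in COLO858, 26, 25, and 0 in MMACSF, and 9 and 15. With the block and median-ratio rescaling together, a choice made after seeing the data, they were 23, 22, and 9, then 27, 26, and 0, then 8 and 15. Rescaling alone gave 4 at 48 h in COLO858 and 2 and 2 line differences. Leaving out small RNA genes before rescaling, also chosen after seeing the data, gave 9, 5, and 1, then 16 and 17, then 2 and 2. A threshold of 0.05 gave 12, 9, and 1, then 22 and 23, then 3 and 6. Without a filter on low values 1 remained at 48 h in COLO858 and 3 at 24 h in MMACSF, and with a minimum of 10 FPKM 1 at 48 h in COLO858. No trend gave 4 at 24 h in MMACSF, and a pseudocount of 10 FPKM gave 2 line differences at 48 h. A spread from only the 4 libraries compared gave 2 and 0 in COLO858 and 1 and 3 in MMACSF at 24 and 48 h. When 1 library was left out, COLO858 gave counts of 0 to 2 (24 h) and 0 (48 h), MMACSF of 0 (24 h) and 0 to 1 (48 h), and the line difference at 48 h of 0 to 1, with 0 for the other 3 results. The counts above 0 came without a library of the time not compared, and the lone library left in a group was taken to vary like the other groups. Adding HSPA1A and HSPA1B gave no value, since both are listed at 0. Apart from the main fit and the block, the share of all genes called in each fit is not given here. A higher count in such a fit was therefore not read as a result about the members. The cause of the changes in these counts was not tested. With 2 replicates and no depth, small differences could not be separated from the spread between replicates.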

Other observations

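Several chromosomal neighbours of CCT2 (chr12:69979206-69995350, plus strand, GRCh37) shared its high level in MMACSF. Of the other 16 genes within 3 Mb that reached 5 FPKM in the DMSO mean of a line, 9 were higher in both DMSO libraries of MMACSF than in both of COLO858, 6 were lower, and 1 overlapped. The 9 are MDM1, RAP1B, NUP107, SLC35E3, MDM2, CPM, YEATS4, FRS2, and CNOT2, which form with CCT2 1 run along the chromosome interrupted by CPSF6 among the genes counted. MDM2, the ubiquitin ligase of p53, was 8.31 times and CCT2 4.67 times as high in MMACSF. The 9 were each 2-fold or more higher in MMACSF (56.25% of the 16, against 13.0% of 8296 genes), and DYRK2 was 2-fold or more lower (6.25%, against 16.0%). The tables of the lines may be scaled apart, and the median ratio of MMACSF to COLO858 over those 8296 genes was 0.877. These neighbours were looked at after the values of CCT2 were seen, and DNA copy number was not measured in these libraries.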
